A study of Mus musculus with 6 samples.

Results

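The axon guidance gene families described here are the semaphorins with their plexin and neuropilin receptors, the ephrins with their Eph receptors, the netrins with Dcc and the Unc5 receptors, and the Slits with their Robo receptors. They were followed in biliary epithelial cells (the lining of the liver's bile ducts) from mice with and without conditional loss of Sox9. Members were taken by gene symbol, and 67 of the 25302 rows of the expression table belonged to them. Of these 67 genes, 56 averaged 10 normalized reads or more across the 6 samples and were tested. The other 11 are given as values only. Both groups carried the Sox9fl/fl genotype: the 3 Control samples had the floxed alleles alone, and the 3 Sox9cKO samples had Sox9fl/fl:AlbCre+/-, that is, the same alleles with 1 copy of a Cre recombinase transgene. AlbCre is driven by the albumin promoter, which is active in hepatocytes and in the fetal progenitors of hepatocytes and bile duct cells, so cells of other lineages in a sample are not its usual target. The age and sex of the mice, and whether a sample came from 1 animal or from a pool, are not given in the sources used here. The p-values therefore measure the spread between these samples, whatever its source.

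Guidance cues are named for steering growing axons, but the same ligands and receptors act in epithelia, vessels and immune cells, where they set cell spacing, adhesion, migration and tubule form. Class 3 semaphorins are secreted and classes 4 to 7 are held at the cell surface, and most signal through plexins, with neuropilins as co-receptors for secreted members. Ephrins of the A class sit on a lipid anchor and those of the B class cross the membrane, and both signal on contact with Eph receptor tyrosine kinases. Netrins bind Dcc and Unc5 receptors, and Slits bind Robo receptors and usually repel.

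Total RNA had been extracted with a kit for small samples, depleted of ribosomal RNA and turned into stranded libraries with unique molecular identifiers. Between 11883496 and 16191990 reads were assigned to genes per sample, and levels are given as normalized reads, the read count after division by each sample's size factor. Sox9 had 6211, 6043 and 6293 normalized reads in Control replicates 1, 2 and 3, and Sox9cKO replicates 1, 2 and 3 had 3363, 3165 and 3340, so all libraries followed their labels and 53.2% of the Control mean remained. The summed level of 13 biliary markers such as Krt19 and Epcam lay between 180766 and 228872 in Control and between 164819 and 231698 in Sox9cKO. Other cell types were also present in the RNA. The sum of 12 endothelial markers ranged from 1866 to 42099 in Control and from 6711 to 42711 in Sox9cKO. The sum of 13 hepatocyte markers ranged from 25265 to 39156 and from 49494 to 81096, that of 12 mesenchymal markers from 2348 to 3023 and from 2482 to 5348, and that of 6 mesothelial markers from 954 to 983 and from 1158 to 2173. The 10 leukocyte markers in the table (13 listed) summed to between 1091 and 1249 in Control and between 1538 and 1854 in Sox9cKO, and the 8 markers of Schwann cells and neurons (11 listed) to between 398 and 507 and between 1909 and 3472. Of the tested markers, 4 of 13 hepatocyte genes, 1 of 6 mesothelial, 1 of 7 leukocyte and 1 of 5 Schwann cell and neuron genes rose, and none of 12 mesenchymal genes was called in limma, where none had an unadjusted p under 0.05, in edgeR or in DESeq2. No marker present in the table was at 0 in all libraries. In the hepatocyte list the largest rise in reads was that of Apob, from a mean of 2712 to 22111. Alb went from 21337 to 29636 and Ttr from 1367 to 1051, both with overlap. Of the 13 hepatocyte genes, 5 were higher without overlap and 0 lower, against 13.4% and 10.8% of all genes. The higher sums of the mesothelial, leukocyte and Schwann cell and neuron lists came mostly from 1 gene each. Csf1r, a macrophage growth factor receptor, rose from a mean of 761 to 1450 normalized reads, while the other 6 tested leukocyte markers had negative fold changes (median of the 7 -0.69) and Ptprc and Cd68 were lower without overlap. Msln, a mesothelial surface protein, rose from 335 to 1408, while 3 of the 6 mesothelial markers had negative fold changes and Upk3b and Gpm6a were lower without overlap. Wt1 was also higher without overlap. Ncam1, an adhesion molecule, rose from 146 to 2433, while 2 of the 5 tested markers of its list had negative fold changes. Among these tested markers, Syt1 was also higher without overlap and Tubb3 lower without overlap. These markers are named after their values were seen. In bulk RNA, fewer cells of a type and less RNA per cell cannot be told apart.

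Loss of Sox9 came with higher levels of Slit3, Sema4b, Plxnb2 and Unc5b and lower levels of Epha7 and Sema5a. These 6 of the 56 tested members (10.7%) had an adjusted p under 0.05 with limma, against 2.97% of all 17153 tested genes. The 4 that rose compare with 2.03% of all genes called higher, and the 2 that fell with 0.939% called lower. The hepatocyte marker sum was also higher in every Sox9cKO sample than in any Control sample, with 11 of its 13 genes at positive and 2 at negative fold changes, and its part in these calls was not tested. The count depended on the samples kept: it was 1 without Control replicate 1, and 3 without Sox9cKO replicate 1 or Sox9cKO replicate 3. With the replicate number as a block in the fit, 14 members were called (25.0%), against 8.05% of all genes, and the 6 were among them. Of the 14, 11 were higher and 3 lower, against 5.06% and 2.99% of all genes. On the reads recovered from the table, edgeR called 5 members (3 higher and 2 lower), against 2.86% of all genes (1.82% and 1.04%). DESeq2 called 10 (7 higher and 3 lower), against 7.08% of all genes (4.21% and 2.88%). The groups did not overlap for 17 of the 56 (30.4%), 9 higher and 8 lower, against 24.2% of all genes (13.4% and 10.8%). An unadjusted p under 0.05 was reached by 16 members in limma, against 17.8% of all genes. Over the tested members the median log2 fold change was 0.27, against 0.036 over all genes. A positive value was found for 34 members and a negative one for 22, against 9293 and 7860 of all genes. The member median depended on the fit, from 0.023 without the filter to 0.477 with a minimum mean of 50. It was 0.038 without Control replicate 3, against 0.014 over all genes. Among same-numbered samples, all 3 pairs differed in 1 direction for 34 members, 21 higher and 13 lower in Sox9cKO, against 48.5% of all genes (26.7% and 21.8%).

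**Figure D1:**
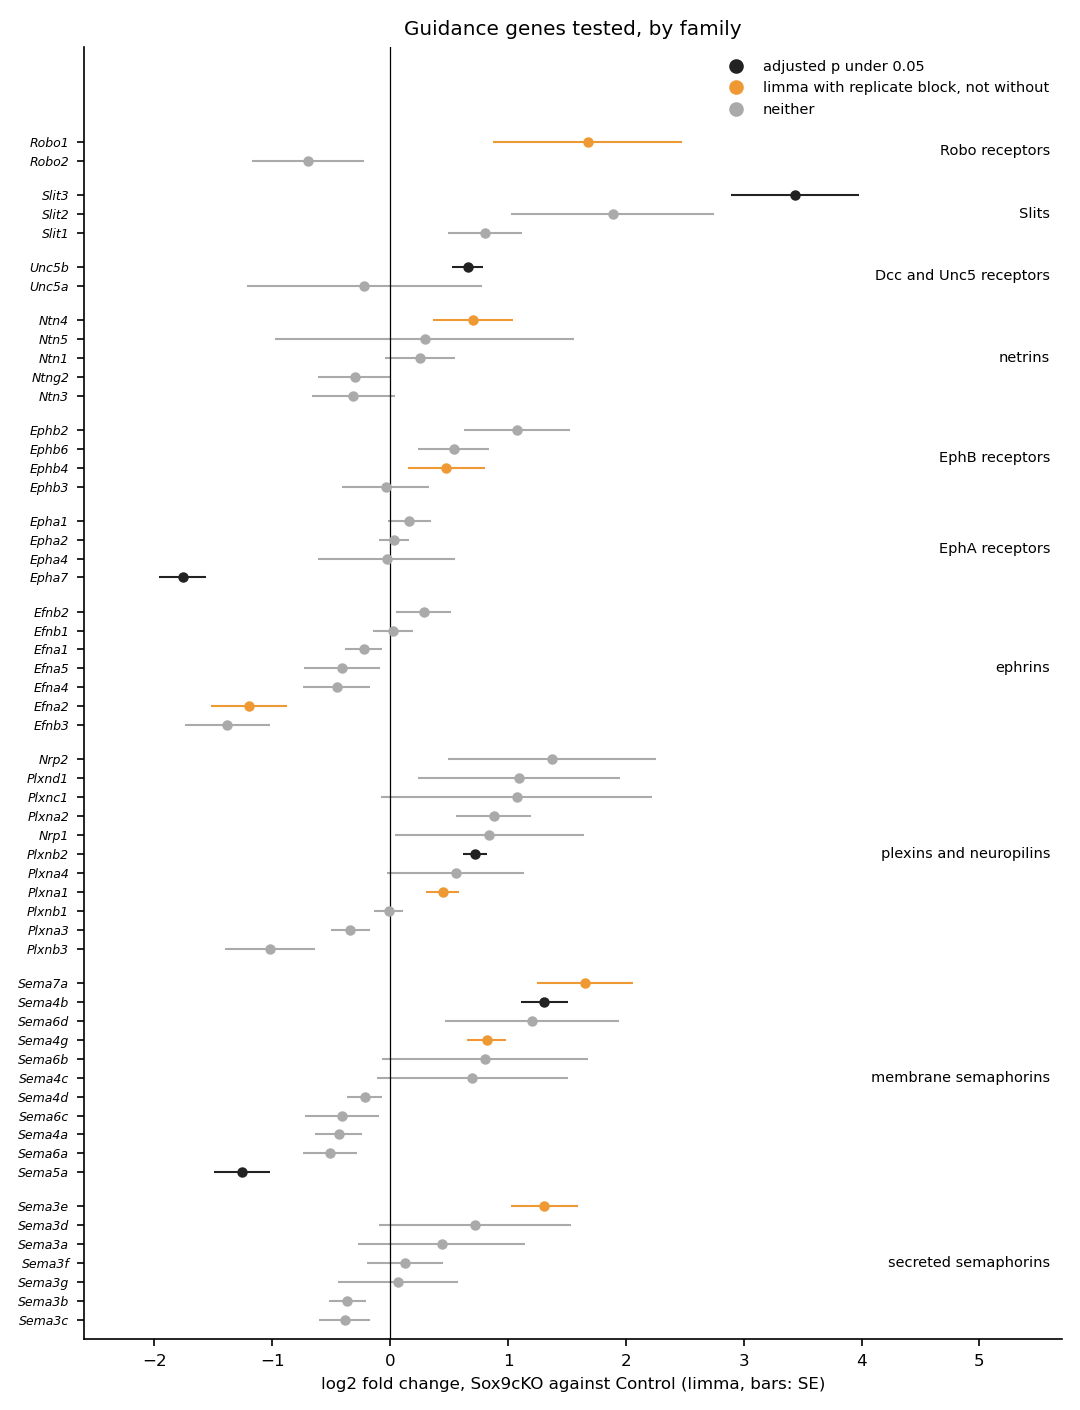
Log2 fold change of each of the 56 tested guidance genes in Sox9cKO against Control (points, with the standard error from limma as bars), grouped by family and ordered by value. Black points mark the 6 genes with an adjusted p under 0.05, orange points the 8 called in limma with the replicate number as a block but not without it, and Slit3 lies farthest to the right at 3.43 and Epha7 farthest to the left at -1.76.

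**Figure D2:**
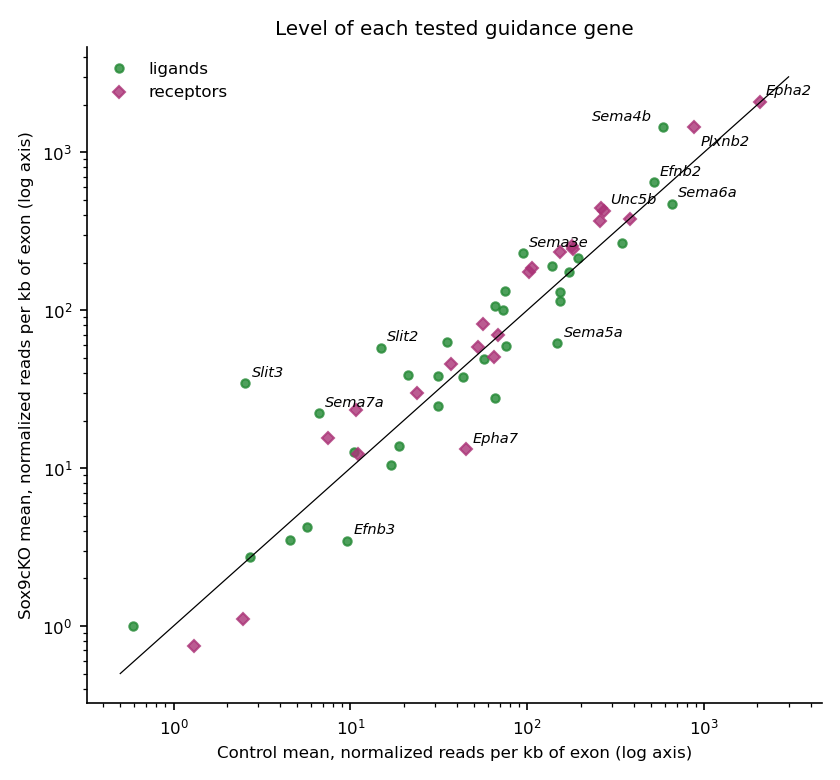
Mean level of each tested guidance gene in Control (horizontal log axis) and Sox9cKO (vertical log axis), in normalized reads per kilobase of exon, with ligands as circles, receptors as diamonds and a line of equality. Epha2 is highest in both groups, near 2059 and 2093, while Slit3 lies far above the line and Epha7 and Sema5a below it.

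Levels per kilobase of exon placed a few members well above the rest. In Control, the receptor kinase gene Epha2 was highest at 2059 normalized reads per kilobase, followed by the plexin gene Plxnb2 at 876, the semaphorin genes Sema6a at 656 and Sema4b at 583, and the ephrin gene Efnb2 at 517. In Sox9cKO the order was Epha2 at 2093, then Plxnb2 at 1443 and Sema4b at 1439, then Efnb2 at 648 and Sema6a at 472. Exon lengths of all 67 members came from an annotation of an earlier build than that of the table, so these levels are approximate.

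The stretches upstream of the start sites of called members are shown so that the genes that rose and the genes that fell can be compared in sequence. RefSeq promoter sequences (GRCm38.p6) matched 57 of the 67 members. The windows printed below hold the 250 bases before the start, cut at the gene's first annotated exon where that lay inside, which left 221 bases for Sema4b and 247 for Sema5a. Slit3 is not shown because fewer than 200 of its bases lay outside annotated exons. Capitals mark matches to the GC box GGGCGG on either strand, the motif of Sp and Krüppel-like factors. The first 3 genes rose and the last 2 fell.

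Sema4b, chr7:80186620-80186840, plus strand: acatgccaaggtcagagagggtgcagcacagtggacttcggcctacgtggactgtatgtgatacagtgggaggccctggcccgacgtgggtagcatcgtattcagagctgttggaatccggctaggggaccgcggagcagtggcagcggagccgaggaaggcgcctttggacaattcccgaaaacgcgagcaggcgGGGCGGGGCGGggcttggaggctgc
Plxnb2, chr15:89180789-89181038, minus strand: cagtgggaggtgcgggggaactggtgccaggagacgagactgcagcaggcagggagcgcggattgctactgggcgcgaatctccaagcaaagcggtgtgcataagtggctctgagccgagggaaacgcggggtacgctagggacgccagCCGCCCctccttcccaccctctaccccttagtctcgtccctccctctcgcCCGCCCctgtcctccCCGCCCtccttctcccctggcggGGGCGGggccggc
Unc5b, chr10:60831582-60831831, minus strand: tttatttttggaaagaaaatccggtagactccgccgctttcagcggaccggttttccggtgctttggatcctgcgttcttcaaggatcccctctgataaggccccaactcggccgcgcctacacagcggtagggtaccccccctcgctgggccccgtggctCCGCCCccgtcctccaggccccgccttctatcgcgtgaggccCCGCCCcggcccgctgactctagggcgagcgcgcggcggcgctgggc
Epha7, chr4:28812881-28813130, plus strand: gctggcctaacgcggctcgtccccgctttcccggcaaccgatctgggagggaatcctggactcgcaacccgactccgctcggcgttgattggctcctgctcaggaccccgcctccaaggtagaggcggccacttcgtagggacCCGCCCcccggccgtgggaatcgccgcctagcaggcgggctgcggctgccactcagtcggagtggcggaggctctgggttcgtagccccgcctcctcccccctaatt
Sema5a, chr15:32244563-32244809, plus strand: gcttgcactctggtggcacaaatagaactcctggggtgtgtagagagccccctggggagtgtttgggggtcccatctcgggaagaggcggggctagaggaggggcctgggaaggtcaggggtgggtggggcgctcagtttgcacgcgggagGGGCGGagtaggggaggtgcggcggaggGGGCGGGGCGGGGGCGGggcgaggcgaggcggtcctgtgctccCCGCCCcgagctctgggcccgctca

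The GC box lay upstream of risen and fallen genes alike. It matched 2 times in the printed bases of Sema4b, 4 times in Plxnb2, 2 times in Unc5b, 1 time in Epha7 and 5 times in Sema5a, with overlapping matches counted. It was present upstream of 43 of 57 matched members (75.4%) and of 33.0% of 27025 genes in windows of 250 bases. The short core AACAAT that Sox proteins bind, searched on both strands and with no overlap with the GC box, was found in none of the 5 printed windows. It was in 2 of the 57 member windows (3.51%) and in 9.62% of all genes' windows. Matched members were richer in G and C, with a median of 64.8% against 52.0% for all genes. The Sema5a window also overlaps, over 100 bases, an exon of Snhg18, a noncoding RNA gene on the other strand. Snhg18, named here after its values were seen, had 177, 91.0 and 136 normalized reads in Control and 78.6, 60.5 and 71.3 in Sox9cKO. As for Sema5a the groups did not overlap, but the log2 fold change of -0.89 was called only with the block (adjusted p 0.155 in limma, 0.0447 with the block) and in DESeq2 (0.0419). Whether reads were counted by strand is not given in the sources used here.

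Among membrane semaphorins, the gene that rose was Sema4b. Sema4b (ENSMUSG00000030539, chromosome 7), a class 4 transmembrane semaphorin, had 2752, 3038 and 4076 normalized reads in Control and 8818, 6359 and 9200 in Sox9cKO, each in the order of replicates 1, 2 and 3, as throughout. The lowest Sox9cKO sample lay above the highest Control sample. Its mean rose to 247% of Control, a log2 fold change of 1.31 ± 0.20 (SE) (adjusted p 0.0187 in limma). The call was lost in 4 fits that each left out 1 sample, with limma adjusted p-values of 0.0883 and 0.0524 without Control replicates 1 and 2 and of 0.0645 and 0.0662 without Sox9cKO replicates 1 and 3.

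Sema5a moved the other way. Sema5a (ENSMUSG00000022231, chromosome 15), a semaphorin with thrombospondin repeats that can attract or repel, had 3340, 2082 and 2881 normalized reads in the Control samples and 1133, 886 and 1457 in the Sox9cKO samples. No Sox9cKO sample reached the lowest Control sample. The Sox9cKO mean was 41.9% of Control, a log2 fold change of -1.26 ± 0.23 (SE) (adjusted p 0.0377 in limma). This call was lost without Control replicate 1 (adjusted p 0.152), Control replicate 3 (0.13), Sox9cKO replicate 1 (0.103) or Sox9cKO replicate 2 (0.0927), all with limma.

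Sema4g and Sema7a were not called in limma on all 6 samples but were with the replicate number as a block and in DESeq2 (adjusted p 0.00182 and 0.0101). Sema4g, another class 4 member, had 731, 610 and 592 normalized reads in Control and 1205, 920 and 1311 in Sox9cKO, with no overlap. It differed by a log2 fold change of 0.82 (adjusted p 0.0518 in limma and 0.0179 once blocked by replicate). In limma the adjusted p was 0.0384 without Sox9cKO replicate 2 and 0.0492 with a pseudocount of 5. Sema7a, the lipid-anchored semaphorin that binds integrins and plexin C1, had 21.01, 29.7 and 14.98 normalized reads in Control and 113, 59.5 and 47.5 in Sox9cKO, again with no overlap. It differed by a log2 fold change of 1.65 (adjusted p 0.0891 in limma and 0.0314 once blocked by replicate). Sema6a, which with Sema4b had the most reads among membrane semaphorins, had 5412, 5334 and 6522 normalized reads in Control and 5085, 4553 and 2803 in Sox9cKO. The groups did not overlap, yet the log2 fold change of -0.51 was not called (adjusted p 0.302 in limma). In all, 1 of the 11 tested membrane semaphorins rose and 1 fell, and their fold changes spanned -1.26 to 1.65.

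None of the 7 secreted semaphorins was called in limma, where 1 had an unadjusted p under 0.05, edgeR called none and DESeq2 called 1. That gene was Sema3e, whose product binds plexin D1 directly. Sema3e had 672, 709 and 1245 normalized reads in Control and 2113, 1596 and 2677 in Sox9cKO, and the groups did not overlap. It differed by a log2 fold change of 1.31 ± 0.28 (SE) (adjusted p 0.0607 in limma and 0.00333 once blocked by replicate). Without Control replicate 3, its highest Control sample, the limma adjusted p was 0.0372. Sema3c, which signals through neuropilins and had the most reads of this class, had 2714, 1970 and 2657 in Control and 1875, 1423 and 2385 in Sox9cKO, where the groups overlapped (log2 fold change -0.39; adjusted p 0.411 in limma).

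Of the 11 plexins and neuropilins, only Plxnb2 was called. Plxnb2 (ENSMUSG00000036606, chromosome 15), a receptor for class 4 semaphorins, had 6688, 6443 and 7157 normalized reads in Control and 11275, 11144 and 11011 in Sox9cKO. The Sox9cKO samples differed from each other by a factor of 1.02 and the Control samples by a factor of 1.11. The mean rose to 165% of Control, a log2 fold change of 0.72 ± 0.10 (SE) (adjusted p 0.0127 in limma). Without Control replicate 1 the limma adjusted p was 0.0787, with a fold change of 0.71 on the log2 scale.

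The related receptor gene Plxnb1, a receptor for Sema4d, had a Sox9cKO mean at 98.7% of Control. Its normalized reads were 4122, 3234 and 3648 in Control and 3640, 3360 and 3864 in Sox9cKO (log2 fold change -0.01 ± 0.13 (SE); adjusted p 0.971 in limma). Plxnb3, the third B plexin, was low, at 10.9, 18.6 and 18.4 in Control and 6.96, 6.62 and 7.92 in Sox9cKO. Its groups did not overlap, but its log2 fold change of -1.02 was not called (adjusted p 0.222 in limma). Plxna1, a receptor used by secreted and class 6 semaphorins, had 1578, 1434 and 1900 normalized reads in Control and 2038, 2177 and 2446 in Sox9cKO. It differed by a log2 fold change of 0.45 (adjusted p 0.16 in limma, 0.0472 once blocked by replicate and 0.0667 in edgeR with the same block).

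**Figure D3:**
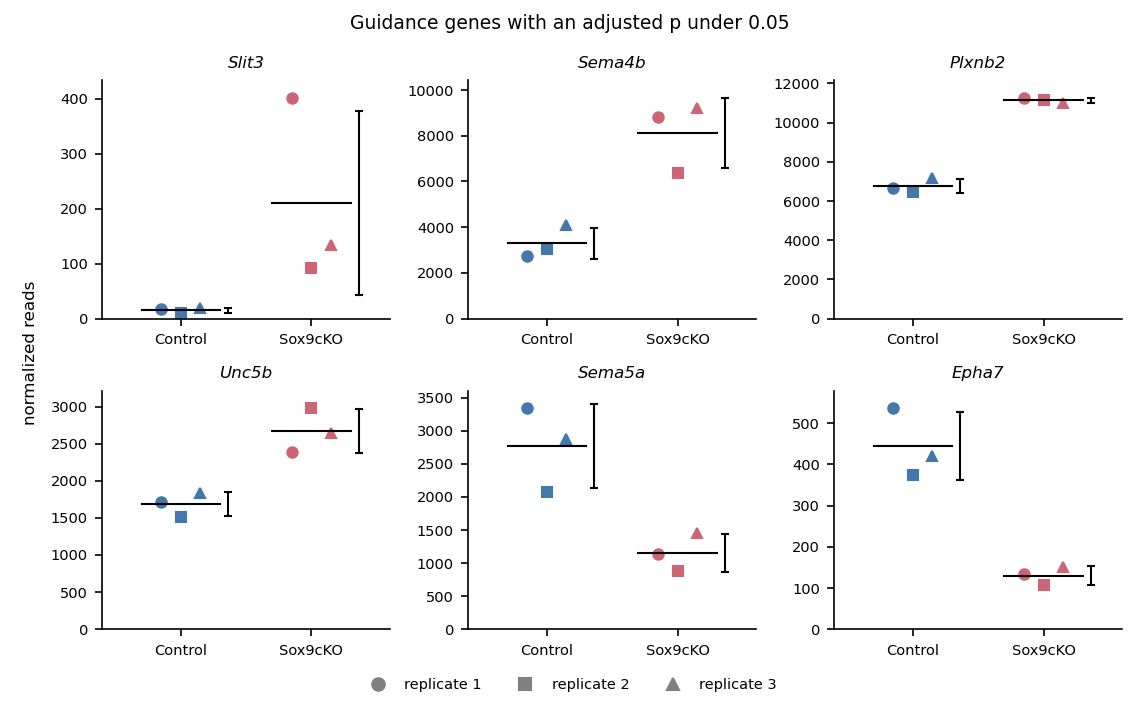
Normalized reads in each sample for the 6 guidance genes with an adjusted p under 0.05, on linear axes that start at 0; symbols give the replicate number, long lines the group mean (n = 3) and bars the SD. In every panel the 3 Sox9cKO samples lie on 1 side of the 3 Control samples, and Slit3 has the widest Sox9cKO spread relative to its mean, from 92.6 to 402.

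In the ephrin and Eph system a single gene was called, the receptor gene Epha7. Epha7 (ENSMUSG00000028289, chromosome 4), a receptor kinase for A-class ephrins, had 536, 375 and 422 normalized reads in Control and 133, 107 and 151 in Sox9cKO. All 3 Sox9cKO samples lay below all 3 Control samples, and the mean was 29.3% of Control. The difference was a log2 fold change of -1.76 ± 0.20 (SE) (adjusted p 0.00642 in limma). Epha7 was the only member called in each of the 6 fits that left out 1 sample, with adjusted p up to 0.0338 in limma. Its call was lost when both samples numbered 1 (0.108) or 3 (0.0793) were left out.

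The most abundant receptor gene of the set showed no such change. Epha2 had 9382, 8444 and 11045 normalized reads in Control and 9904, 9670 and 9773 in Sox9cKO (log2 fold change 0.03 ± 0.13 (SE); adjusted p 0.932 in limma). Ephb4, the main receptor for ephrin B2 in veins, had 1290, 1481 and 830 in Control and 1727, 2332 and 1063 in Sox9cKO. Its groups overlapped, while in each same-numbered pair the Sox9cKO sample was higher, by factors of 1.34, 1.57 and 1.28. The endothelial marker sum was also higher in Sox9cKO in each pair, at 33050.5 against 12978.5, 42711 against 42099 and 6711 against 1866. The part of endothelial RNA in the Ephb4 result was not tested. Ephb4 was called only in limma with the replicate block (log2 fold change 0.48; adjusted p 0.503 in limma and 0.0443 once blocked by replicate). In edgeR with the same block Ephb4 was not called (0.0613). The other 5 tested Eph genes (Epha1, Epha4, Ephb2, Ephb3 and Ephb6) had log2 fold changes from -0.04 to 1.07 and were called in neither fit.

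Ephrin genes were not called in limma, where 2 of the 7 tested had an unadjusted p under 0.05, and DESeq2 called 1 and edgeR none. Efnb2, the B-class ligand with the most reads, had 3620, 3120 and 3901 normalized reads in Control and 5460, 2966 and 4899 in Sox9cKO, with overlap (log2 fold change 0.28; adjusted p 0.591 in limma). Efnb1 was nearly equal, at 671, 613 and 502 against 695, 605 and 515 (log2 fold change 0.02; adjusted p 0.964 in limma). Among the less abundant ephrins, the groups of Efna2, Efna4 and Efnb3 did not overlap, and all 3 were lower in Sox9cKO. These were 3 of the 7 tested ephrins (42.9%), against 10.8% of all tested genes lower without overlap. The groups of the other tested ephrins overlapped. Efna4 is named here after its values were seen. Efna2, a lipid-anchored ligand of EphA receptors, had 131, 191 and 96.8 normalized reads in Control and 43.8, 78.4 and 56.6 in Sox9cKO. It differed by a log2 fold change of -1.20 (adjusted p 0.111 in limma, 0.0252 once blocked by replicate and 0.0136 in DESeq2). Efnb3 had 23.5, 27.8 and 40.3 against 12.9, 12.3 and 7.92 (log2 fold change -1.38; adjusted p 0.104 in limma).

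In the netrin system, Unc5b rose. Unc5b (ENSMUSG00000020099, chromosome 10), a netrin receptor that can trigger cell death when unbound, had 1712, 1516 and 1841 normalized reads in Control and 2381, 2976 and 2647 in Sox9cKO. The groups were separate, and the mean rose to 158% of Control, a log2 fold change of 0.66 ± 0.13 (SE) (adjusted p 0.0474 in limma). This call was lost in every fit that left out 1 sample, with limma adjusted p-values of 0.169, 0.114 and 0.0994 without Control replicates 1 to 3 and of 0.0595, 0.137 and 0.113 without Sox9cKO replicates 1 to 3. It was also lost in limma without a filter (0.052), in limma after quantile normalization (0.0652) and in edgeR (0.0611).

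The netrin genes themselves were not called without the block in limma, edgeR or DESeq2, and none of the 5 tested had an unadjusted p under 0.05 in limma. Ntn1, the classical chemoattractant, had 168, 244 and 175 normalized reads in Control and 351, 202 and 171 in Sox9cKO (log2 fold change 0.25; adjusted p 0.719 in limma). Ntn4, a basement membrane netrin that binds laminin, had 259, 319 and 156 in Control and 408, 522 and 261 in Sox9cKO. The groups overlapped, and the ratio within same-numbered pairs was 1.58, 1.63 and 1.68 (log2 fold change 0.70; adjusted p 0.339 in limma and 0.0222 once blocked by replicate). Unc5a, the second Unc5 gene tested, had 26.9, 87.2 and 23.0 against 79.6, 69.0 and 5.66 (log2 fold change -0.22; adjusted p 0.943 in limma).

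Dcc, Unc5c and Unc5d were close to the limit of detection. Dcc, the attractive netrin receptor, had 3.36, 7.42 and 4.61 normalized reads in Control and 0.99, 1.89 and 1.13 in Sox9cKO. Unc5c had 10.1, 11.1 and 10.4 against 8.95, 2.84 and 4.53, and Unc5d 5.04, 5.57 and 9.22 against 0, 0.945 and 2.26. All 3 were lower in every Sox9cKO sample than in any Control sample, at means too low for the test. Without the filter limma called 5 members, all of them among the 6, so these genes were not called there either. How many genes under the filter were lower without overlap was not counted. Each Sox9cKO library had a read on fewer genes (23743 to 24199) than any Control library (24568 to 25084). Over all genes the median log2 fold change in limma was -0.051 without the filter, against 0.036 with it. The remaining untested members were Epha3, Epha5, Epha8, Epha10, Ephb1, Efna3, Ntng1 and Robo3, each with a mean under 10 normalized reads, and the groups overlapped for all of these except Ntng1. Ntng1, which encodes a lipid-anchored netrin-G, had 1.68, 8.35 and 1.15 in Control and 0.99, 0.945 and 0 in Sox9cKO.

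The Slit genes held the largest rise of the set. Slit3 (ENSMUSG00000056427, chromosome 11), a secreted Robo ligand, had 17.7, 10.2 and 18.4 normalized reads in Control and 402, 92.6 and 135 in Sox9cKO. The groups lay far apart, although the Sox9cKO samples differed widely among themselves. Slit3 rose from a mean of 15.4 ± 4.54 to 210 ± 168 (SD, n = 3), a log2 fold change of 3.43 ± 0.54 (SE) (adjusted p 0.0211 in limma). The call was lost without Control replicates 1, 2 or 3 (limma, adjusted p 0.0851, 0.0534 and 0.0688) and without Sox9cKO replicate 3 (0.0598). Sox9cKO replicate 1, which had the most Slit3, also had the highest mesenchymal marker sum, 5348, and the highest biliary and mesothelial sums, 231698 and 2173. In Sox9cKO replicate 2, with 92.6 normalized reads of Slit3, the mesenchymal sum was 2482, within the Control range of 2348 to 3023. The part of mesenchymal cells in the Slit3 result was not tested.

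Slit2 had 439, 104 and 595 normalized reads in Control and 341, 1744 and 2325 in Sox9cKO. The groups overlapped, because Sox9cKO replicate 1 lay within the Control range, and the log2 fold change of 1.89 ± 0.87 (SE) was not called (adjusted p 0.316 in limma and 0.152 once blocked by replicate). Slit1 had 129, 99.3 and 149 against 302, 138 and 248 (log2 fold change 0.81; adjusted p 0.239 in limma and 0.0512 once blocked by replicate). All 3 Slit genes thus had positive fold changes and 1 rose. The Slit receptor gene Robo1 had 95.0, 401 and 36.9 normalized reads in Control and 437, 516 and 209 in Sox9cKO, and was called only in limma with the replicate block (log2 fold change 1.68; adjusted p 0.34 in limma and 0.0488 once blocked by replicate), and not in edgeR with the same block (0.0821). Robo2 was low, at 15.1, 36.2 and 14.98 against 12.9, 17.0 and 7.92 (log2 fold change -0.70; adjusted p 0.506 in limma).

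A set of members varied more between samples of a group than between the groups. In 12 of the 56 tested members (21.4%) the highest Control sample was at least 4 times the lowest, against 1013 of 17153 genes (5.91%), a limit chosen after the values were seen. In 11 of these 12 the Control samples stood in the order of the endothelial marker sum, which was 1866 in replicate 3, 12979 in replicate 1 and 42099 in replicate 2. Of all genes, 721 (4.20%) had this order and span. The 11 were Nrp1, Nrp2, Ntn5, Plxna4, Plxnc1, Plxnd1, Robo1, Sema3d, Sema4c, Sema6b and Sema6d, and Sox9cKO replicate 3 was the lowest Sox9cKO sample in each, as it was in 649 of the 721. The other one was Slit2, which stood in the reverse order. The genes named here and in the next paragraph beyond the rule for named genes were chosen after their values were seen.

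Neuropilins and plexin D1 are known for their part in vessels, where they receive secreted semaphorins and, for neuropilins, growth factors of the VEGF family. Nrp1 had 1274, 3604 and 401 normalized reads in Control and 2829, 3678 and 1019 in Sox9cKO. Nrp2 had 630, 2904 and 230 against 2305, 3278 and 978. Plxnd1, the receptor for Sema3e, had 1386, 3953 and 395 against 4040, 4526 and 1157. In all 3 genes the samples with number 2 were the highest of their group and those with number 3 the lowest, as for the endothelial sum. The log2 fold changes of Nrp1, Nrp2 and Plxnd1 were 0.84, 1.38 and 1.10, and none was called in limma (adjusted p 0.648, 0.478 and 0.571) or with the block (0.0853, 0.0599 and 0.0547). Whether endothelial RNA carries these levels was not tested. All 12 endothelial markers had positive fold changes (median 1.09), and none was called in limma, where none had an unadjusted p under 0.05, or in edgeR or DESeq2, while 1 was called with the block.

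**Figure D4:**
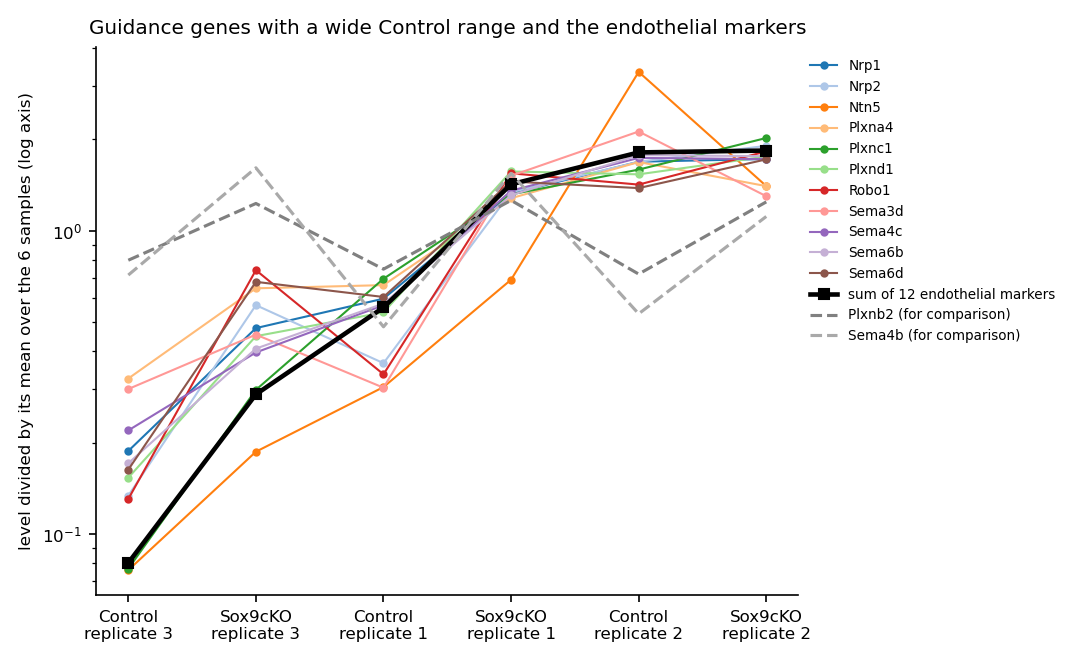
Level of the 11 guidance genes with a wide Control range, each divided by its mean over the 6 samples (log axis), with samples ordered by the sum of 12 endothelial markers (black squares). Across the 3 Control samples all 11 lines climb with the black line, and the dashed lines give Plxnb2 and Sema4b in the same samples.

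Partners and effectors of these receptors were followed through 4 lists with 90 genes in all, of which 83 were tested, 2 rose and 5 fell, against 2.03% and 0.939% of all genes. With the block 11 were called higher and 6 lower, against 5.06% and 2.99% of all genes. The counts per list that follow are small and stand beside the 2.97% of all genes called in limma. In the semaphorin list 32 genes were tested and 1 rose and 1 fell. Mical2, an oxidase that takes actin filaments apart, rose from 995, 1074 and 1175 normalized reads to 2141, 2227 and 2177 (log2 fold change 1.01; adjusted p 0.00535 in limma). Dpysl4, a collapsin response mediator protein gene, fell from 327, 232 and 262 to 23.9, 23.6 and 28.3 (log2 fold change -3.38; adjusted p 0.00114 in limma). For both genes the groups lay far apart, with little spread within a group, and both calls held in all 6 fits that left out 1 sample. In the Eph list 1 of 21 tested genes rose, Chn2, which encodes a Rac-inactivating chimaerin, from 19.3, 32.5 and 19.6 to 99.5, 70.9 and 56.6 (log2 fold change 1.63; adjusted p 0.0495 in limma). The Chn2 call was lost in edgeR (0.0572), in limma with a pseudocount of 0.1 (0.0501) or no filter (0.0502), without Control replicates 1 or 3 (0.187 and 0.156) and without Sox9cKO replicates 1, 2 or 3 (0.12, 0.129 and 0.0744).

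In the netrin list 3 of 14 tested genes fell. Rgma, which encodes a lipid-anchored ligand of the Dcc relative neogenin, had 179, 109 and 138 normalized reads in Control and 17.9, 4.73 and 14.7 in Sox9cKO (log2 fold change -3.55; adjusted p 0.0116 in limma). Dscam, a surface receptor that also binds netrin, had 103, 66.8 and 72.6 against 13.9, 3.78 and 4.53 (log2 fold change -3.46; adjusted p 0.0133 in limma). Neo1 itself, the neogenin gene, was not called (log2 fold change -0.27; adjusted p 0.476 in limma), and is named after its values were seen. Enah, an actin regulator listed for both netrin and Slit signalling, fell from 2378, 1917 and 2159 to 1122, 856 and 1304 (log2 fold change -0.99; adjusted p 0.0317 in limma). In the Slit list 2 of 18 tested genes fell, Enah and Srgap3. Srgap3, a Robo-bound inactivator of Rac, had 403, 242 and 244 normalized reads in Control and 88.5, 22.7 and 48.7 in Sox9cKO (log2 fold change -2.61; adjusted p 0.0355 in limma). The Srgap3 call was lost without Control replicates 1, 2 or 3 (limma adjusted p 0.153, 0.0686 and 0.102) or Sox9cKO replicate 3 (0.0921). That of Enah was lost without Control replicates 1, 2 or 3 (0.145, 0.0509 and 0.11) or Sox9cKO replicates 1 or 2 (0.0805 and 0.0624). Those of Rgma and Dscam were lost without Control replicate 1 (0.0709 and 0.0801) or Control replicate 3 (0.0557 and 0.0575). The median log2 fold changes of the 4 lists were 0.16, 0.17, -0.25 and 0.28, in the order given, against 0.036 over all genes.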

How the data were processed

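RNA sequencing of 6 samples of mouse biliary epithelial cells was analysed from 1 deposited table. The values the authors deposited are a signal for each gene: read counts that had been scaled with a size factor for every sample, as the deposited values show. DESeq2 1.36.0 and GRCm39 are named in the submitters' processing notes. The aligner, counter, annotation and use of the molecular identifiers are not given in the sources used here. When each value was divided by its sample's smallest nonzero value, 100% came out as whole reads, within 0.001 of a read. The lowest total of a row was 10 reads, and 1 row had no Ensembl gene identifier.

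Values were transformed as log2(value + 1), and the genes averaging 10 or more across samples went into limma 3.58.1 in R 4.3.3 (lmFit, eBayes with an intensity trend). All tests were two-sided, with Benjamini-Hochberg adjustment over all tested genes and a threshold of 0.05. Fold changes are on the log2(value + 1) scale, which understates those of low genes. Members, lists and the naming rule were chosen with earlier results of these data known. The naming rule took Sox9, members called in limma with or without the block, members with a log2 fold change of 1 or more in size and separate groups, the 2 members with most reads per family, and at most 4 called genes per partner list.

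The replicate number comes from the sample titles. After subtraction of the group mean, same-numbered samples correlated across genes (0.207, 0.472 and 0.542 for numbers 1 to 3). They were paired only in the fits with the replicate block. The main limma fit, and edgeR and DESeq2 without the block, did not use the pairing. Samples of a group all differed beyond counting noise, with chi-square values of 21.4 to 45.4 per degree of freedom. Alternatives were the replicate block, edgeR 4.0.16 (quasi-likelihood) and DESeq2 1.42.0 on the recovered reads, leaving out samples, TMM factors or quantile normalization, pseudocounts of 0.1 and 5, and a minimum mean of 50 or none. Exon lengths came from GENCODE M21 (GRCm38), where all 67 members matched by gene identifier. The limma step was tested on simulated reads.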

Additional observations from a re-analysis of the deposited data

How the results depend on the processing

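Of the 56 tested guidance genes, limma called 6. It called 14 with the replicate block, which pairs same-numbered samples, edgeR with the replicate block called 11, and DESeq2 called 10. The cause was not tested. Other fits on all 6 samples called between 5 and 7. Leaving out 1 sample gave 1 to 5 calls. Leaving out both samples of a replicate number, chosen after the data were seen, gave 5 without replicate 2 and 0 without replicates 1 or 3 in limma, where 13 and 15 members had an unadjusted p under 0.05. These last fits have 2 samples a group, and Sox9 itself missed the threshold in them (with samples left out its log2 fold change was -0.93 to -0.88, against -0.91). Over all genes, 510 were called, 1381 with the replicate block, 1160 with edgeR and the replicate block, 1214 with DESeq2, and 12 to 387 with samples left out.

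Values near 0 changed sign. Epha2 (0.03) became -0.021 with edgeR, -0.014 with DESeq2, -0.012 with edgeR and the block and -0.055 with quantile normalization. Efnb1 (0.02) became -0.022, -0.016, -0.021 and -0.087 in the same order. Unc5a (-0.22) became 0.118 with edgeR and 0.123 with DESeq2. With samples left out, log2 fold changes ranged from -0.0575 to 0.137 for Epha2, -0.0937 to 0.134 for Efnb1, -0.152 to 0.512 for Ntn1, -0.101 to 0.0739 for Plxnb1 and -1.09 to 0.946 for Unc5a. None of these genes was called in any fit. The replicate block changed no call of a named gene but those given beside the results and that of the marker Syt1. The adjusted p of Syt1 was 0.138 in limma and 0.0167 once blocked by replicate. Depth limits genes with means under 10 normalized reads.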
